A study of Homo sapiens with 3 samples.

Results

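The genes described are 10 members of the S100 family: S100A2, S100A4, S100A6, S100A7, S100A8, S100A9, S100A10, S100A11, S100A14 and S100P. They were chosen by name, with earlier results of these data known, so their counts are descriptions of a chosen list. Every probe set whose platform annotation gives 1 gene symbol, that of a member, was taken. This gave 13 probe sets for the 10 genes, out of 19775 genes with 1 symbol on the array. The cells were KYSE140, a line established from a human squamous carcinoma of the oesophagus, grown in RPMI medium with serum and antibiotics. They stayed untreated (1 Affymetrix array) or received cisplatin, the DNA-crosslinking platinum drug, for 12 h at a dose labelled 10 mM (2 arrays, called B1 and B2). The question was which transcripts differ after the drug. No label tells whether B1 and B2 were independent cultures. Their spread may therefore be technical. The p-values and SEs below measure only that spread, drawn by limma towards the spread of all genes. The fit had 1 residual and 2.012 prior degrees of freedom, and the untreated group had no replicate.

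S100 proteins are small calcium-binding proteins with a pair of EF-hand motifs that mostly work as dimers and dock onto partner proteins. Most of their genes sit in a cluster on chromosome 1 that also holds the genes of the epidermal cornified envelope, and several mark stages of squamous differentiation. S100A8 and S100A9 form calprotectin, a metal-binding complex abundant in neutrophils and induced in stressed or inflamed squamous epithelium.

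B2 stood apart from the other arrays before any S100 gene was considered. B2 and B1 differed with an SD of 0.56 (log2) over all genes, and B1 and the untreated array with an SD of 0.33. Results are therefore given for each cisplatin array separately, so that every value can be read with B2 and without it. The deposited intensities had array medians of 34.8 (untreated), 35.9 (B1) and 35.6 (B2), and a probe set near or under these values is called dim below. No detection calls were used, so dim values may be background.

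The S100 genes differed from the untreated array in both directions in B2 and, with their brightest probe sets, by at most 0.39 on the log2 scale in B1. S100A8 and S100A9 were 13.7-fold and 12.1-fold lower in B2 than in the untreated array, while B1 differed from the untreated array by less than 10% for both. S100P was 2.20-fold and S100A2 1.66-fold higher in B2. S100A4, S100A6, S100A10, S100A11 and S100A14 differed in B2 by 1.08-fold to 1.33-fold with their brightest probe sets, all upwards, and S100A7 was dim. With limma, no member passed an adjusted p of 0.05 (0 of 10, against 0% of all genes). The smallest adjusted p of a member was 0.969, and 0 of 10 had an unadjusted p under 0.05, against 2.86% of all genes. With 1 residual degree of freedom, that between B1 and B2, its count of 0 does not show that the genes were stable.

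The stretches just before the start sites of 5 members are shown because they carry the same core promoter letters in genes that differed in opposite directions in B2. The sequences are the 100 bases before the RefSeq start on GRCh38.p14, 5′ to 3′ on the gene's own strand, and the TATAAA letters are in capitals. The S100P stretch also has in capitals a match, on the opposite strand, to TTNNGNAA, a core of sites bound by C/EBP factors. The RefSeq promoter windows used here cover 3 starts for S100A8, and the one with TATAAA nearest to 30 bases upstream is shown.
S100A8 (chr1:153391074-153391173, minus strand): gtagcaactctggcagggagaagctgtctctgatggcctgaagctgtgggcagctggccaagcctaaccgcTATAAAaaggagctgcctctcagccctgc
S100A9 (chr1:153357754-153357853, plus strand): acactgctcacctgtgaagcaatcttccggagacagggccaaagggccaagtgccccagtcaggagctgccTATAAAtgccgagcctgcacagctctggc
S100A7 (chr1:153460652-153460751, minus strand): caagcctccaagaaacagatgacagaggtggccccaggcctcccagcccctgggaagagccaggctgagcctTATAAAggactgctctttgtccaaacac
S100A4 (chr1:153545807-153545906, minus strand): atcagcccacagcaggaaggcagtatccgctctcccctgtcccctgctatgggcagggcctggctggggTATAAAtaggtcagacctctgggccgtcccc
S100P (chr4:6693778-6693877, plus strand): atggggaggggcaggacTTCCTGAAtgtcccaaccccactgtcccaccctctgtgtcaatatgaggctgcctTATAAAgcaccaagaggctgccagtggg

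The stretches were picked for their TATAAA match, which began 29 bases before the start in S100A8 and S100A9, 28 in S100A7 and S100P, and 31 in S100A4. A sense-strand match beginning 40 to 20 bases before a start was present for 5 of 10 members, and in 2.3% of the 35116 RefSeq promoter windows. All 10 members had a window, 13 windows in total, and 250 bases before each start were searched on both strands. A member was counted when any of its starts had a match, whereas the shares over all windows count each window, so the units differ. TATAAA, the TATA box core, was found for 5 of 10 members, against 10.7% of all windows. TTNNGNAA was found for 5 of 10 members (S100A6, S100A8, S100A9, S100A11 and S100P), against 33.2% of windows. TGANTCA, the site of AP-1 factors, was found for S100A2 alone, 52 bases before a start, against 6.57% of windows. None of the matches overlapped a match to another motif. Of the members with TATAAA, the dim S100A7, S100A8 and S100A9 were lower in B2 than untreated, and S100A4 and S100P higher. The members without TATAAA were all higher in B2 with their brightest probe sets. Of those with TTNNGNAA, S100A8 and S100A9 were lower in B2, and S100A6, S100A11 and S100P higher. Whether these letters go with direction was not tested. A match is a description of the letters and not evidence of binding.

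S100A8, the calprotectin subunit that pairs with S100A9, was read by probe set 202917_s_at at intensities of 467 (untreated), 482 (B1) and 34.1 (B2). The untreated array and B1 lay together, and B2 lay far below both, near its array median of 35.6. The log2 difference from untreated was 0.04 in B1 and -3.78 in B2. Only 33 of the 19775 genes, S100A8 included, had a B2 difference this low or lower. A second S100A8 probe set, 214370_at, was dim, with 10.9 (untreated), 13.1 (B1) and 6.14 (B2). It too was lowest in B2, by 1.77-fold against untreated, a much smaller difference than that of the brighter probe set. Averaging both probe sets on the log2 scale gave 0.16 in B1 and -2.30 in B2.

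S100A9, the other calprotectin subunit, had intensities of 157 (untreated), 150 (B1) and 12.95 (B2) with probe set 203535_at, the only one for this gene. The pattern was that of S100A8: B1 beside the untreated array and B2 far below, under the first quartile of its array (13.2). The log2 difference from untreated was -0.06 in B1 and -3.60 in B2, with 42 genes as low or lower in B2. The sign of the small B1 difference changed with quantile normalization (0.06). Over B1 and B2 together the mean log2 difference was -1.87 for S100A8 (SE 1.91) and -1.83 for S100A9 (SE 1.77), so each error was about as large as the difference. The SD between the cisplatin arrays was 2.70 for S100A8 and 2.50 for S100A9. Of all genes, 0.182% differed between B2 and B1 by as much as S100A8 did, and 0.212% by as much as S100A9.

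The B2 values of both calprotectin genes were dim, so their fold differences depend on how background was handled. With 16 added to every intensity the B2 difference was -3.27 for S100A8 and -2.58 for S100A9. Both stayed over 2-fold lower in B2 under that setting, by less than without it. In B2, 2 of 10 members were at least 2-fold lower, against 4.5% of all genes. Bulk RNA cannot separate fewer cells carrying these transcripts from less RNA in each cell.

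S100A7 (psoriasin), an antimicrobial S100 protein of stressed squamous epithelium, was dim in all arrays. Its intensities were 25.1 (untreated), 24.3 (B1) and 13.9 (B2). B2 was the lowest, with a log2 difference of -0.85 against -0.05 in B1. These values lie under the array medians, where a difference of this size is hard to interpret.

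**Figure D1:**
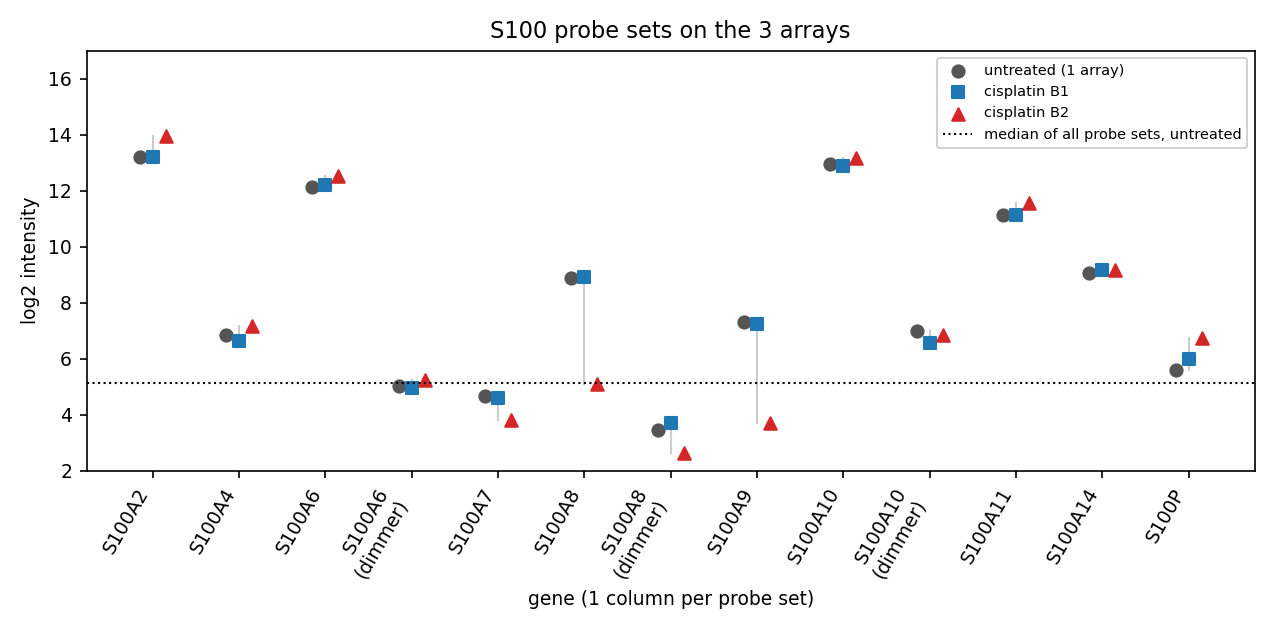
Log2 intensity (vertical axis) of the 13 S100 probe sets (columns) in the untreated array (grey circles), cisplatin B1 (blue squares) and cisplatin B2 (red triangles), with the untreated array's median over all probe sets dotted. Each point is 1 array; B2 lies far below the other arrays for the brighter S100A8 probe set and for S100A9, and S100P is highest in B2.

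S100P, a ligand of the receptor RAGE that also binds ezrin, was the member with the largest upward difference. Its intensities were 48.0 (untreated), 63.0 (B1) and 106 (B2). The 3 arrays were spread, with B1 between the others, and both cisplatin arrays were above the untreated one. The log2 difference was 0.39 in B1 and 1.14 in B2 (mean 0.77, SE 0.42; limma adjusted p = 0.969). It was the single member at least 2-fold higher in B2, against 2.99% of all genes. With 16 added to every intensity the B2 difference was 0.93, under 2-fold. S100P lies outside the chromosome 1 cluster, on chromosome 4.

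S100A2, a nuclear S100 protein of basal keratinocytes that binds p53, had intensities of 9444 (untreated), 9338 (B1) and 15716 (B2). The untreated array and B1 were nearly equal, and B2 was the highest. The log2 difference was -0.02 in B1 and 0.73 in B2. The SD between B1 and B2 was 0.53, larger than the mean difference of 0.36 (SE 0.42). Of all genes, 10.6% differed between B2 and B1 by at least as much.

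The annexin partners S100A10 and S100A11 were steadier. S100A10 (p11), which tethers annexin A2 at the plasma membrane and has lost the ability to bind calcium, had intensities of 7834, 7574 and 9095 in the untreated array, B1 and B2. Its dimmer probe set, 238909_at, read 126, 93.6 and 115, so the untreated array was the highest there and B2 the highest with the brighter one. The log2 differences were -0.05 (B1) and 0.22 (B2) with the brighter probe set and -0.43 and -0.13 with the dimmer one, so that both were below untreated in B1 and their signs disagreed in B2. S100A11, a partner of annexin A1, read 2251 (untreated), 2224 (B1) and 2992 (B2). Its log2 differences were -0.02 and 0.41, with B2 again the highest.

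S100A6 (calcyclin), a growth-associated member that binds the ubiquitin ligase adaptor CACYBP, read 4450 (untreated), 4680 (B1) and 5838 (B2). The log2 differences were 0.07 and 0.39. Its second probe set, 228923_at, was at 32.8, 30.9 and 37.5, near the array medians, with differences of -0.09 and 0.19. S100A4, a member linked to cell motility that binds non-muscle myosin, read 116 (untreated), 100.1 (B1) and 145 (B2), or -0.21 and 0.32. The cisplatin arrays lay on either side of the untreated array for S100A4.

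S100A14, an epithelial member, was the most even of the 10 across arrays. It read 532 (untreated), 569 (B1) and 575 (B2), with log2 differences of 0.10 and 0.11. The cisplatin arrays differed by 0.02 on the log2 scale, and 95.6% of all genes differed by at least as much.

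**Figure D2:**
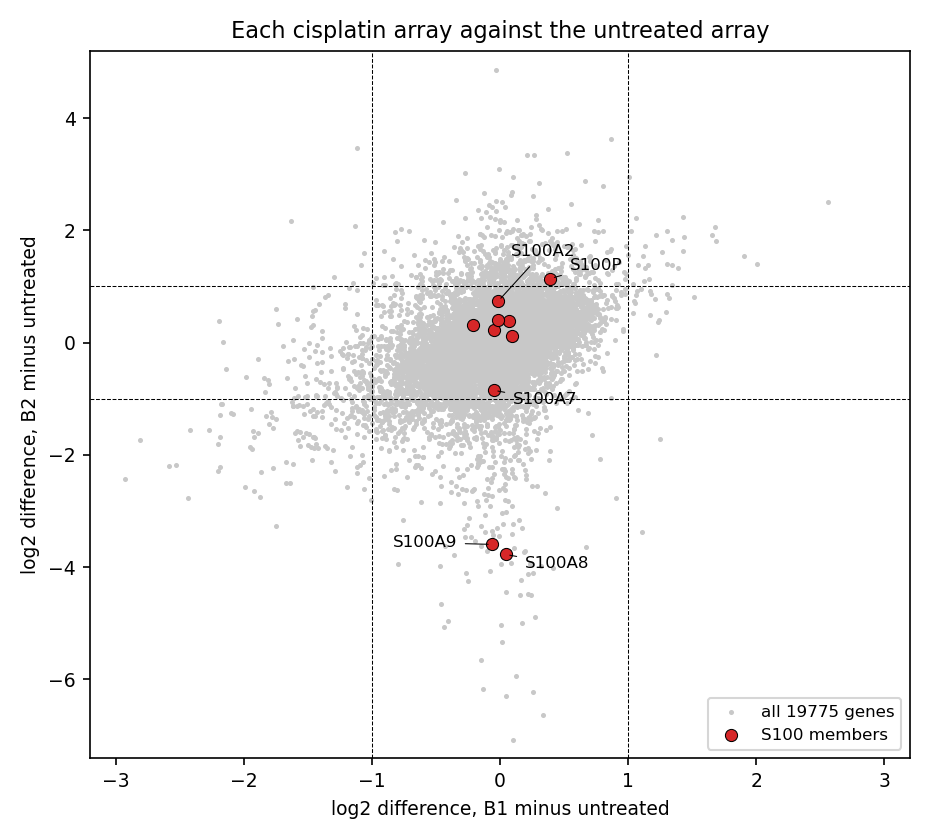
Log2 difference from the untreated array in B1 (horizontal axis) and in B2 (vertical axis) for all 19775 genes (grey) and the 10 S100 members (red), each gene by its brightest probe set; dashed lines mark 2-fold. The members form a narrow vertical band near 0 in B1, and S100A8 (-3.78) and S100A9 (-3.60) lie far down the B2 axis; both axes share the untreated array.

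Across the members the median log2 difference was -0.02 in B1 and 0.27 in B2, beside 0.03 and 0.05 over all genes. In B1 the members ranged from -0.21 to 0.39, and none was at least 2-fold higher (0 of 10, against 0.238% of genes) or lower (0 of 10, against 1.51%). In B2 they ranged from -3.78 to 1.14. B2 was above both other arrays for 7 of 10 members, against 42.2% of all genes, and in S100A14 this order rested on a B2 to B1 difference whose sign changed with quantile normalization. No member was at least 2-fold higher in both cisplatin arrays (0 of 10, against 0.142% of genes) or lower in both (0 of 10, against 0.678%). Counting any size, 3 of 10 were higher in both arrays (S100A6, S100A14 and S100P), against 39.2% of genes, and 2 of 10 were lower in both (S100A7 and S100A9), against 27.4%. The B1 signs of S100A6 and S100A9 turned with the mean over probe sets and with quantile normalization, respectively. The sign of every member's B2 difference was the same under quantile normalization, median centring, the added 16 and the mean over probe sets.

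The members' genes are short by annotated gene span, from 1.39 kb (S100A6) to 32.6 kb (S100A8), with a median of 3.23 kb against 24.7 kb for all genes. S100A8 and S100A9 are close neighbours, with only S100A12 between them among protein-coding genes. S100A12, a related neutrophil protein, was dim at 13.8 (untreated), 20.6 (B1) and 14.6 (B2). Next to S100A8 lies S100A7A, at 35.9, 40.8 and 38.9. The neighbouring pair of calprotectin genes was thus low in B2 while the gene between them and the one beside them had no level from which a fall of that size could be read.

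From S100A10 to S100A1 the annotation of GRCh38.p14 holds 63 protein-coding genes, of which 40 were measured and 17 had a mean log2 intensity of at least 6. Of these 17, 3 were at least 2-fold lower in B2 (S100A8, S100A9 and FLG), 2 were at least 2-fold higher (SPRR1A and SPRR1B), and none differed 2-fold in B1. The mean was taken over all 3 arrays, B2 included. SPRR1A reached 6 only through B2, with log2 values of 5.62 (untreated), 5.78 (B1) and 7.33 (B2). Among all 10209 genes of that mean level, 751 were at least 2-fold lower and 390 at least 2-fold higher in B2. In B1 the numbers were 247 lower and 33 higher, so that 2-fold differences were rare there in general. The genes low and high in B2 were interspersed along the cluster. FLG, which encodes filaggrin, the S100-fused protein of the granular layer, read 163 (untreated), 167 (B1) and 23.2 (B2). SPRR1B, a small proline-rich envelope precursor, read 98.6, 105 and 610 in the same order. FLG therefore sat with the calprotectin genes and SPRR1B opposite to them, each with B1 close to the untreated array. The B2 value of FLG was dim, under its array median of 35.6, so the size of its fall depends on how background was handled.

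**Figure D3:**
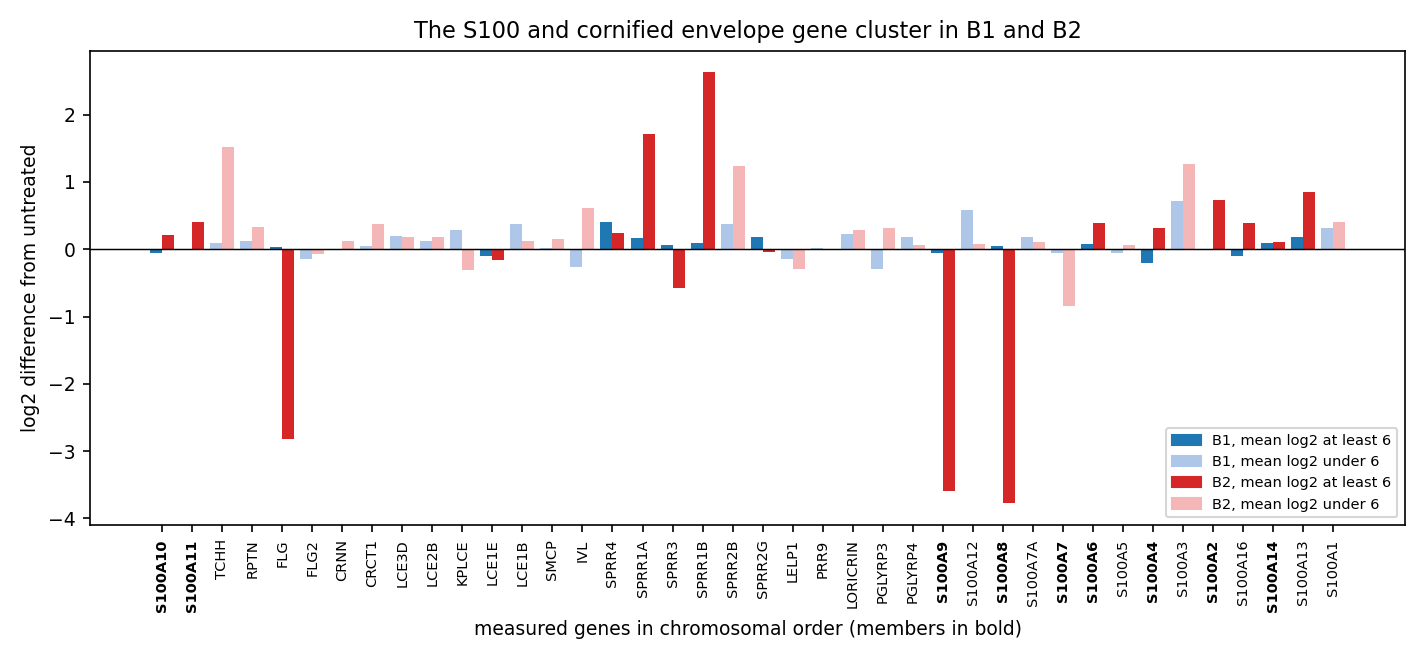
Log2 difference from the untreated array in B1 (blue) and B2 (red) for the 40 measured genes from S100A10 to S100A1 in chromosomal order, members in bold, with genes of mean log2 intensity under 6 in pale colours. S100A8, S100A9 and FLG are the deep downward red bars, SPRR1B (2.63) is the tallest upward bar, and no blue bar reaches 1.

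Of 11 other S100 genes listed, 10 were measured, and S100A13 and S100A16 alone had a mean log2 of at least 6. The other 8 were too dim to show a difference as deep as that of S100A8. None of the 10 was at least 2-fold lower in either array, against 1.51% of all genes in B1 and 4.5% in B2. S100A13, involved in release of growth factors that lack a signal peptide, read 1253 (untreated), 1417 (B1) and 2252 (B2), log2 differences of 0.18 and 0.85. S100A16, an epithelial member, read 3006, 2812 and 3941, or -0.10 and 0.39. The 10 genes had a median difference of 0.18 (B1) and 0.31 (B2). All 10 were higher in B2, as were 11191 of all 19775 genes, and none passed the limma test (0 of 10). S100A3, a hair cuticle protein, was at least 2-fold higher in B2 from a dim 31.3 (log2 differences 0.71 and 1.27). It was named after its values were seen.

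Binding partners and receptors of S100 proteins differed in both directions, read by their brightest probe sets. Those of ANXA2 and CACYBP are of the _x_at kind, which can also bind transcripts of similar sequence. Outside this list, the brightest probe sets of SPRR1A, SPRR2B, COL1A1, COL3A1, DCN and CD163 are of that kind too, as is that of LCE1E in the chromosome 1 cluster. All 12 were measured, and with the brightest probe set none reached 2-fold in either array. Of all genes, 0.238% were at least 2-fold higher and 1.51% lower in B1, and 2.99% and 4.5% in B2. Of the partners, 0 of 12 passed limma. The medians were -0.04 in B1 and 0.20 in B2. EZR (ezrin, a partner of S100P that links membrane to actin) read 4278 (untreated), 3845 (B1) and 2486 (B2), so that it was lower in B2 where S100P was higher. CACYBP, the partner of S100A6, differed by -0.11 and -0.59, and MYH9, the non-muscle myosin bound by S100A4, by -0.45 and -0.57. The other CACYBP probe sets were above untreated in B1 (0.03 to 0.43) and below it in B2 (-0.53 to -0.07). BSG (basigin), a receptor of S100A9, differed by 0.09 and 0.56. With their brightest probe sets the annexins ANXA1 (0.08 and 0.42) and ANXA2 (-0.10 and 0.03) differed little, as did their S100 partners. The dimmer ANXA1 probe set read 76.8 (untreated), 119.7 (B1) and 178.1 (B2). Its log2 differences were 0.64 and 1.21, so it was over 2-fold higher in B2. The calprotectin receptors AGER (RAGE) and TLR4 were dim, at 27.3 and 16.52 in the untreated array.

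Genes of the S100-fused type and of the envelope are the cluster's other families. Of 7 fused-type genes 5 were measured, and FLG was the only one with a mean log2 of at least 6. TCHH (trichohyalin) was 2-fold higher or more in B2 from a dim 9.86 (0.09 and 1.52), and was named after its values were seen. Of 12 envelope genes 10 were measured, and their median difference was 0.10 (B1) and 0.35 (B2). Of these, 3 of 10 were at least 2-fold higher in B2, against 2.99% of all genes: SPRR1B (0.09 and 2.63), SPRR1A (0.16 and 1.71) and the dim SPRR2B (0.37 and 1.24). SPRR3, an envelope protein of oesophageal epithelium, differed by 0.06 and -0.57 with its brighter probe set and by 0.25 and 0.69 with the other. None of either list passed limma.

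The genes nearest to S100A8 in their pair of differences were PSMB8, HMOX1 and MLKL, among genes with a mean log2 of at least 6. The measure was the Euclidean distance between the B1 and B2 log2 differences, over 3 arrays. PSMB8, an immunoproteasome subunit, read 233 (untreated), 251 (B1) and 18.3 (B2), at a distance of 0.13. HMOX1, the haem-degrading enzyme, read 1528, 1738 and 115, at 0.15. MLKL, the effector of necroptosis, read 262, 277 and 17.2, at 0.16. S100A9 lay at 0.21. These genes were picked on the same differences, so their likeness to S100A8 is a description, and the B2 values of PSMB8, MLKL and S100A9 lay under the array median.

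Markers of cell types that also carry S100 proteins were read beside these values. Of 10 myeloid markers 8 were measured, all with a mean log2 under 6, and their summed intensity was 171 (untreated), 161 (B1) and 175 (B2). PTPRC (CD45), which defines leukocytes, was at 6.24, 5.24 and 5.50, near the lowest intensity on the arrays (3.03), and LYZ was at 12.2, 10.8 and 10.8. The measured myeloid markers were thus low in every array, with little level from which a fall in B2 could be read. Their part in the S100A8 and S100A9 values was not tested. The fibroblast markers summed to 320, 352 and 447 (8 of 8 measured), with THY1 at 59.5, 61.6 and 144 and COL1A2 at 23.1, 22.6 and 24.5. COL1A1 read 122, 155 and 159 with its brightest probe set. Of its dimmer probe sets, one read 93.9, 99.4 and 285, and another read 52.3, 61.2 and 144. Their part in the S100A4 values was not tested.

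Markers of squamous epithelium were well above the array medians in every array. Of 10 markers 7 were measured, and TP63, KRT6A and KRT17 were not analysed here. Their summed intensity was 14580 (untreated), 11114 (B1) and 19643 (B2). KRT14, the basal keratin, read 278, 276 and 2372, and KRT5, its pairing partner, read 1217, 1345 and 4251. DSG3, a desmosomal cadherin, read 375, 321 and 790, whereas the epithelial adhesion gene EPCAM read 4545, 4503 and 4190. SOX2, a transcription factor of squamous progenitors, read 5656, 2416 and 5308, and was the only one of the 7 at least 2-fold apart from untreated in B1 (log2 difference -1.23). The basal keratins were thus high in B2, in the same array in which S100A2, S100P and SPRR1B were high and S100A8, S100A9 and FLG low. The part of these markers in the S100 values was not tested.

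**Figure D4:**
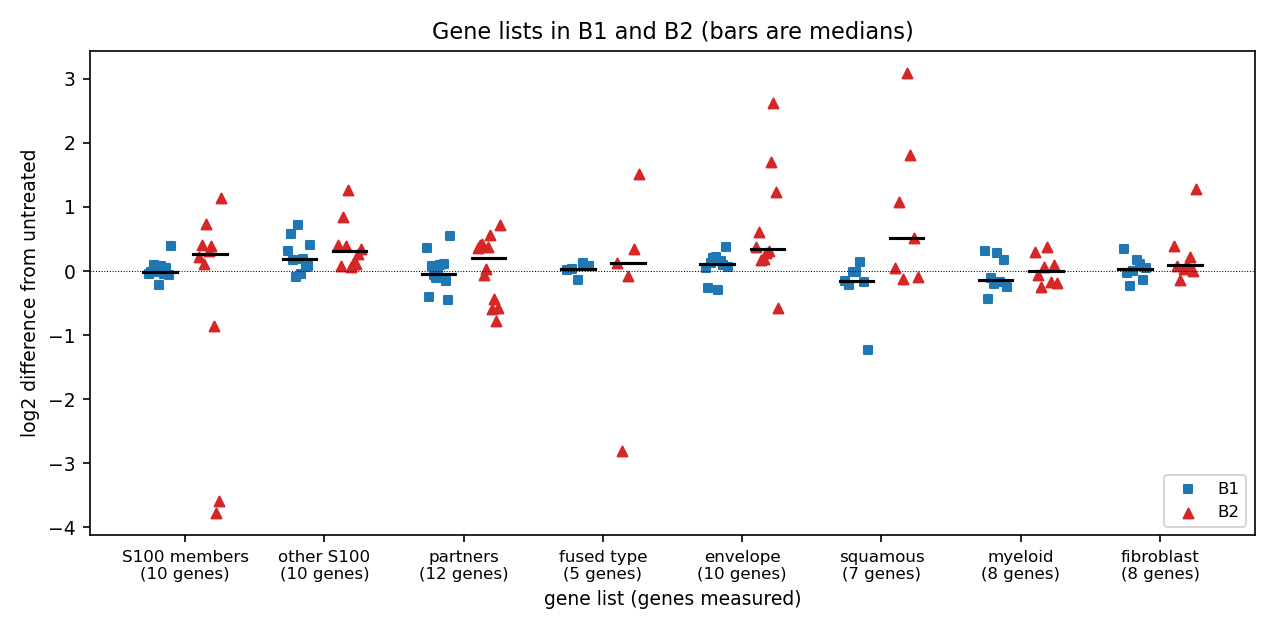
Log2 difference from the untreated array (vertical axis) in B1 (blue squares) and B2 (red triangles) for each measured gene of 8 gene lists, with medians as black bars. The S100 members reach lower in B2 (-3.78) than any other list shown, squamous markers reach highest (KRT14, 3.10), and myeloid markers stay within -0.44 and 0.38 in both arrays.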

How the data were processed

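The deposited values are intensities on a linear scale, 1 per probe set, made by the authors with RMA per the submitters' processing notes (background correction, normalization between arrays and summary of probes). The sources used here name no version or chip definition. They were put on the log2 scale with no pseudocount. The 62 control probe sets were left out. Symbols were updated by gene number to GRCh38.p14 (19734 of 19775 genes found). Of several probe sets of a gene, that with the highest mean log2 over the arrays was used. Cisplatin was compared with untreated using limma 3.58.1 in R 4.3.3 (lmFit, eBayes, Benjamini-Hochberg over all genes, threshold 0.05), which assumes that the lone untreated array varies like the treated pair. The fit was tested on simulated data with the same spread in all 3 arrays. That setting does not cover an array that stands apart, as B2 did. Genes named were all members, up to 4 per related list by absolute mean difference with mean log2 of at least 6, and the 3 nearest to the member most different in B2. Members and lists were chosen with earlier results of these data known. Promoter sequences are from RefSeq.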

Additional observations from a re-analysis of the deposited data

How the results depend on the processing

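No gene was called by limma under any of 7 other settings (lowest adjusted p 0.948, on all probe sets). At 1.5-fold in both cisplatin arrays, 189 genes were higher and 524 lower, against 28 and 134 at 2-fold, and with the mean over probe sets 38 were lower. With 1 cisplatin array left out, higher genes ranged from 47 to 591 and lower genes from 299 to 890, the larger counts being those of B2. Members at least 2-fold higher then ranged from 0 to 1 and lower from 0 to 2, again with B2 as the source of the larger counts.

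Of 60 values of the members' mean difference under alternatives, 54 kept their sign and 6 did not. S100A10 became -0.10 with the mean over probe sets. With B1 alone the values were -0.016 for S100A2, -0.21 for S100A4, 0.044 for S100A8, -0.049 for S100A10 and -0.017 for S100A11. With B2 alone the range reached 0.73, 0.32, -3.78, 0.22 and 0.41 for the same genes. Leaving out an array left no residual degree of freedom, so these are values with no test. No paired analysis was possible because the single untreated array shares no replicate number with B1 and B2 in the labels. Precision is limited by there being 3 arrays, and dim probe sets such as S100A7 limit what their differences can show.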
